A study of Homo sapiens with 6 samples.

Results

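The genes of cholesterol synthesis and uptake were examined in RNA sequencing of the human esophageal squamous cell carcinoma (ESCC) line KYSE450 and of its KEAP1-deficient derivative, KEAP1null-KYSE450. The set was a list of 30 gene symbols for the enzymes of the pathway, its sterol sensors, and proteins of sterol uptake, transport and storage. Genes were found by symbol, and where a symbol had several entries the one with the highest mean was used. All 30 were found among the 58884 genes of the matrix. Of these, 29 were among the 16701 genes that reached a mean of 10 normalized counts and were tested. The remaining one, NPC1L1, is a transporter of sterol absorption and was listed at 0 in 5 of 6 libraries.

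Both lines were untreated, were grown in RPMI1640 medium with fetal bovine serum and gave total RNA, with 3 libraries each. KYSE450 is an established ESCC line with wild-type NRF2 and intact KEAP1, the adaptor through which NRF2 is marked for degradation. KEAP1null-KYSE450 was made from it by CRISPR-Cas9 editing of a coding exon of KEAP1 and single-cell cloning. It is therefore 1 clone, and loss of KEAP1 and other features of that clone cannot be told apart. Nothing in the labels says that the libraries came from separate cultures, so the p-values measure only the spread between these samples, which may be technical.

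Cells make cholesterol from acetyl-CoA through mevalonate and the isoprenoid diphosphates, then through squalene and lanosterol. Demand is sensed in the endoplasmic reticulum, where INSIG proteins hold the complex of SCAP and the SREBP precursors when sterol is plentiful. When sterol falls, SCAP carries SREBP2, the product of SREBF2, to the Golgi for cleavage, and the released factor activates most genes of the pathway, usually together with the CCAAT-binding factor NF-Y. In stratified squamous epithelium such as skin, cholesterol is also one of the barrier lipids of the outer layers.

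The 6 libraries held between 54829313 and 57380170 normalized counts each, and 3 reads corresponded to 2.77 to 3.21 normalized counts, which was taken as the floor of detection for counting error only. KEAP1 mRNA was 5760.4, 5226 and 5146 normalized counts in KYSE450 and 5737, 4906 and 5317 in KEAP1null-KYSE450 (log2 fold change -0.017, SE 0.096, adjusted p = 0.90, limma with Benjamini-Hochberg adjustment), so its level did not separate the lines and does not check the edit. All 10 squamous epithelial markers had a mean of at least 10. At an adjusted p under 0.05, 8 were lower and 2 higher in KEAP1null-KYSE450, against 25.5% and 24.3% of all genes tested. Past a log2 fold change of 1 as well, 4 were lower and 1 higher, against 5.98% and 12.2%. Means in KYSE450 and KEAP1null-KYSE450 were 2401 and 34.5 for KRT14, 50937 and 1763 for KRT17, and 71578 and 2738 for KRT6A. They were 13766 and 1735 for PKP1, and 208100 and 568248 for KRT5, which rose. Of 14 markers of leukocytes, endothelium, stroma, muscle and liver, 6 (CD3E, MS4A1, PECAM1, DCN, DES and APOB) were at or below the floor in every library, and 3 had a mean of at least 10. Those 3 were COL1A1, with means of 701 and 388, CDH5, with 19.9 and 1.97, and VWF, with 45.4 and 54.4. The summed level of the 14 markers was 677 to 913 in KYSE450 and 388 to 522 in KEAP1null-KYSE450, and its part in the results was not tested.

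Promoter windows are shown first because the pathway is known for shared control by SREBP2 and NF-Y, and because NRF2 is the factor that KEAP1 restrains. Each window runs from 250 bases before to 50 bases after the RefSeq transcription start, on the plus strand of GRCh38.p14. A window was found for 27 of the 30 members, and ACAT2, FDFT1 and SQLE had no entry. Both strands were searched for TCACNCCAC (the core of a sterol regulatory element), CCAAT (the NF-Y box) and TGACNNNGC (the core of an antioxidant response element), and capitals mark every match. SREBF2 is shown as the gene of SREBP2, and FDPS as the member of highest level per kb. MVK was chosen for its number of CCAAT boxes, the highest of any member together with NSDHL, so it is not typical. INSIG2 is shown as the member that fell furthest in the test over 6 libraries, and GGPS1 and TM7SF2 as the members that rose. The windows lie at chr22:41832855-41833154 (SREBF2), chr1:155308616-155308915 (FDPS), chr12:109573544-109573843 (MVK), chr2:118088221-118088520 (INSIG2), chr1:235326966-235327265 (GGPS1) and chr11:65111622-65111921 (TM7SF2). Starts in RefSeq and gencode can differ, and the window of GGPS1 ends before the gencode start of the gene.
SREBF2: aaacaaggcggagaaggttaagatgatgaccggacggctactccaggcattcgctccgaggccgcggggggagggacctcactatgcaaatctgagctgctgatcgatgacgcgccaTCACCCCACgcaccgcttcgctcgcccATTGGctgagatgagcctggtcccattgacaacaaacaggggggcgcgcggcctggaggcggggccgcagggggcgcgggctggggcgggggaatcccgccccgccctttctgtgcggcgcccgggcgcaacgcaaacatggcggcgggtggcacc
FDPS: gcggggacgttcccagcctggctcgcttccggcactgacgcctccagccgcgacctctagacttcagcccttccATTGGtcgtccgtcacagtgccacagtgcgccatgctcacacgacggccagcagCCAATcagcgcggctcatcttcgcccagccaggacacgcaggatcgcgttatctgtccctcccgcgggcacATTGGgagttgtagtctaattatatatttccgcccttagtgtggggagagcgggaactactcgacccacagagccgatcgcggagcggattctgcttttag
MVK: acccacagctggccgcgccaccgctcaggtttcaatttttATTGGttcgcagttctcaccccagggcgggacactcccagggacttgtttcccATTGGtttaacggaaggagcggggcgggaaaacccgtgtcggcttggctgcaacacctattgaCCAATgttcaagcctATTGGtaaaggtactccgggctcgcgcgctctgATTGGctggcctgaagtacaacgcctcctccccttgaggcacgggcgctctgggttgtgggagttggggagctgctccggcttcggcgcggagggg
INSIG2: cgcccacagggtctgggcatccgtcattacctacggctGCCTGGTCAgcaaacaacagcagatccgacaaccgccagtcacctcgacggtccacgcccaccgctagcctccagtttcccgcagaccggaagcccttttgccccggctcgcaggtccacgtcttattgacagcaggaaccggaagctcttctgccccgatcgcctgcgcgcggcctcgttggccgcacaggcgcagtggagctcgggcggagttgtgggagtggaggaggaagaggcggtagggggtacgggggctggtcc
GGPS1: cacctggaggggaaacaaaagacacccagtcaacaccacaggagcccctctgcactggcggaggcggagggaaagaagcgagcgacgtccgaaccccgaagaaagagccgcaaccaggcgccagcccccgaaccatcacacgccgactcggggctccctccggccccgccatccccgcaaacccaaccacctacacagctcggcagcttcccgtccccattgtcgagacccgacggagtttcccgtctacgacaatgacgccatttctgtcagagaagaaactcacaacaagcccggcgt
TM7SF2: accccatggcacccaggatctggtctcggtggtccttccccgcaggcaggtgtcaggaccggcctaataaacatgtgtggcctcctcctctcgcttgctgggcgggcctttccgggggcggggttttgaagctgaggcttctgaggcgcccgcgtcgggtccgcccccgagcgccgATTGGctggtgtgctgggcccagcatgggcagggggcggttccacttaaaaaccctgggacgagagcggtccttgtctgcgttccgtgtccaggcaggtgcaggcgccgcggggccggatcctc

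The sterol element core was present in the window of 1 of 27 members, SREBF2, where it began 133 bases before the start, against 1.15% of 27305 promoters of all genes. A CCAAT box was present in 19 of 27 members, against 35.7% of all promoters and 36.4% of the 11059 promoters of tested genes. MVK and NSDHL held 5 boxes each, the most of any member, with 2 of those in NSDHL overlapping on opposite strands. MSMO1, which did not pass the test between the lines, held 4, and FDPS, MVD and EBP held 3 each. The antioxidant element core was present in EBP, INSIG2, NPC1L1 and SOAT1, which is 4 of 27 members against 13.6% of all promoters. Among the 18 tested members with a CCAAT box, 11 were lower in KEAP1null-KYSE450, 1 was higher and 6 did not pass the test. Among the 8 without one, 6 were lower, 1 was higher and 1 did not pass. The 3 tested members with an antioxidant element core were all lower, as were 14 of the 23 tested members without one. Whatever their motifs, 20 of the 29 tested members were lower, against 25.5% lower and 24.3% higher over all genes tested. Whether the calls differ with a motif was not tested. A match is a description of the letters in this window and not a binding site. Only these strings in these windows were searched, so a missing match does not mean that a promoter lacks the element.

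In KEAP1null-KYSE450, most of the pathway was expressed at a lower level than in KYSE450. Of the 29 members tested, 20 fell, 2 rose and 7 did not pass an adjusted p of 0.05 (limma with Benjamini-Hochberg adjustment over 16701 genes). Over all genes tested, 25.5% were lower and 24.3% were higher by the same rule. On whole reads of 4 libraries, without KYSE450 library 2 and KEAP1null-KYSE450 library 3, edgeR and DESeq2 each called 13 members lower and 2 higher, against 14.8% and 16.4% of all genes lower. Squalene and sterol synthesis held 8 of the genes that fell, early mevalonate synthesis 6, and sterol sensing and uptake 3 each. The genes that rose were GGPS1 and TM7SF2. With a further limit of 1 on the absolute log2 fold change, INSIG2 was lower and TM7SF2 was higher, against 5.98% lower and 12.2% higher over all genes tested. INSIG2 missed that limit without KYSE450 library 2, without KEAP1null-KYSE450 library 3, with edgeR and DESeq2, which used neither of those libraries, and under both other scalings. The median log2 fold change of the 29 members was -0.48, and that of all genes tested was 0.0041. Of the 20 decreases, 19 were under 2-fold.

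Most members were lower in each library of the clone. Against the mean of KYSE450, 25 of 29 members lay lower in each of the 3 KEAP1null-KYSE450 libraries, with median log2 differences of -0.35, -0.56 and -0.44. The KYSE450 libraries had medians of 0.058, 0.043 and -0.10 on the same scale. For 20 members every KEAP1null-KYSE450 library lay below every KYSE450 library, for 2 every one lay above, and for 7 the lines overlapped. Over all genes tested, 29.3% had all KEAP1null-KYSE450 libraries below and 28.4% had all above. The summed normalized counts of the 30 members were 104712, 100123 and 96305 in KYSE450 and 76850, 68631 and 71160 in KEAP1null-KYSE450. RNA from a whole culture does not tell fewer expressing cells from less RNA per cell.

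**Figure D1:**
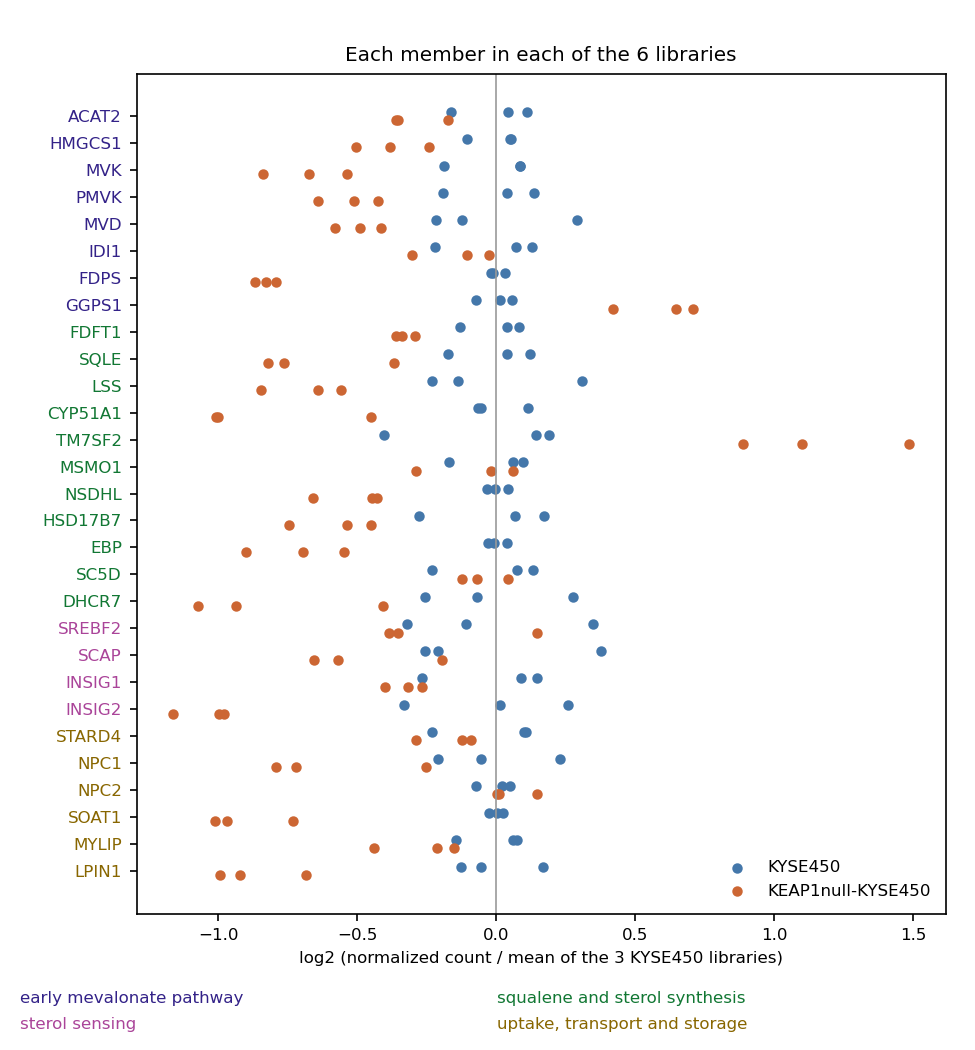
Log2 ratio of each member's normalized count to its mean over the 3 KYSE450 libraries, with 1 point per library, KYSE450 in blue and KEAP1null-KYSE450 in orange, and gene names coloured by role. The orange points lie left of the blue points for 20 of the 29 members and to their right for GGPS1 and TM7SF2.

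The first enzymes, which lead from acetyl-CoA to farnesyl and geranylgeranyl diphosphate, comprised 8 members, of which 6 fell and 1 rose. FDPS, the synthase of farnesyl diphosphate (ENSG00000160752, chr1:155308748-155320666 in hg38), had normalized counts of 13338, 13429 and 13827 in KYSE450 and 7810.0, 7418 and 7623 in KEAP1null-KYSE450. The replicates of each line were close together and the lines were far apart, so that the mean of the clone was 56.3% of that of KYSE450 (log2 fold change -0.83, SE 0.085, adjusted p = 7.1e-06). MVK, the kinase of mevalonate, had 1249, 1250.4 and 1033 in KYSE450 against 811, 658 and 738 in KEAP1null-KYSE450. Its lines did not overlap either, and the level in the clone was 62.5% of that in KYSE450 (log2 fold change -0.68, SE 0.13, adjusted p = 7.7e-04). PMVK, which adds the next phosphate, gave 1187, 1111 and 945 in KYSE450 and 806, 692 and 758 in KEAP1null-KYSE450. All 3 libraries of the clone were lower (log2 fold change -0.52, SE 0.12, adjusted p = 0.0039). MVD, which decarboxylates the product to isopentenyl diphosphate, gave 2816, 2114 and 1978 in KYSE450 and 1641, 1539 and 1728 in the clone. KYSE450 library 1 stood above the rest of its line, and even the lowest KYSE450 library lay above the clone (log2 fold change -0.48, SE 0.13, adjusted p = 0.0087).

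HMGCS1, the synthase of HMG-CoA, fell less, with 6537, 6519 and 5863 in KYSE450 and 5329.7, 4839 and 4445 in KEAP1null-KYSE450. The lines were separate and the clone kept 77.2% of the KYSE450 level (log2 fold change -0.37, SE 0.098, adjusted p = 0.0071). ACAT2, which condenses acetyl-CoA units in the cytosol, had 8183, 9415 and 9873 in KYSE450 and 7168, 7129 and 8114 in the clone. KYSE450 library 1 and KEAP1null-KYSE450 library 3 were nearly equal, with no overlap (log2 fold change -0.29, SE 0.10, adjusted p = 0.030). This was the smallest decrease that passed the test, and it did not pass under 8 of 17 other settings. The isomerase IDI1 did not pass (log2 fold change -0.14, SE 0.11, adjusted p = 0.34), with a 95% interval of -0.38 to 0.11.

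GGPS1, the synthase of geranylgeranyl diphosphate, went the other way (ENSG00000152904, chr1:235327350-235344532 in hg38). Its normalized counts were 779, 712 and 754 in KYSE450 and 1001, 1170.3 and 1222 in KEAP1null-KYSE450. Every library of the clone was above every KYSE450 library, at 151% of the KYSE450 mean (log2 fold change 0.59, SE 0.12, adjusted p = 0.0012). FDPS and GGPS1 make successive products of the same branch, and the 2 changes were opposite in sign. The direction and call of both were the same under all 17 other settings.

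Squalene synthesis and the conversion of squalene to cholesterol comprised 11 members, of which 8 fell and 1 rose. CYP51A1, the sterol demethylase that acts on lanosterol, had 799, 709.6 and 706 normalized counts in KYSE450 and 539.8, 369 and 367 in KEAP1null-KYSE450. KEAP1null-KYSE450 library 1 was the highest of its line, yet was lower than any KYSE450 library (log2 fold change -0.82, SE 0.16, adjusted p = 0.0011). DHCR7, a reductase of the last steps, had 9178, 7232 and 6350.2 in KYSE450 and 5712, 3601 and 3959 in KEAP1null-KYSE450. Library 1 was the highest in both lines and the lines did not overlap (log2 fold change -0.79, SE 0.17, adjusted p = 0.0018). EBP, the sterol isomerase, was even among the KYSE450 libraries at 1713, 1636 and 1658, and lower in the clone at 1141, 894 and 1031. The clone held 61.2% of the KYSE450 level (log2 fold change -0.71, SE 0.11, adjusted p = 2.4e-04). LSS, which closes the ring of lanosterol, gave 7841, 5748 and 5393 in KYSE450 against 4295, 3517 and 4059.6 in KEAP1null-KYSE450. Library 1 was again highest in both lines, and no values overlapped (log2 fold change -0.66, SE 0.14, adjusted p = 0.0014).

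SQLE, the epoxidase of squalene and a rate-setting enzyme of the pathway, had 3578, 3376 and 2911 in KYSE450 and 2549.5, 1858 and 1936 in KEAP1null-KYSE450. All libraries of the clone were lower, at 64.3% of the KYSE450 mean (log2 fold change -0.65, SE 0.13, adjusted p = 0.0013). HSD17B7, a ketosteroid reductase, gave 1360.4, 1727 and 1857 in KYSE450 against 984, 1137 and 1205 in the clone. Here library 1 was the lowest of each line, and the lines were separate (log2 fold change -0.57, SE 0.13, adjusted p = 0.0036). NSDHL, a sterol dehydrogenase that removes methyl groups together with MSMO1 and HSD17B7, gave 1743, 1838 and 1778 in KYSE450 and 1310.3, 1129.5 and 1325 in the clone. The lines did not overlap (log2 fold change -0.51, SE 0.10, adjusted p = 0.0014). FDFT1, which makes squalene from farnesyl diphosphate, gave 6089.8, 6855 and 7062 in KYSE450 and 5446, 5189 and 5273 in the clone. The decrease, to 79.5%, was smaller than for the other enzymes that fell in this group (log2 fold change -0.33, SE 0.092, adjusted p = 0.010). MSMO1 and SC5D did not pass, with log2 fold changes of -0.079 and -0.042, 95% intervals of -0.35 to 0.19 and -0.31 to 0.23 and overlapping libraries.

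TM7SF2, the reductase of the sterol that the demethylase leaves behind (ENSG00000149809, chr11:65111845-65116384 in hg38), was the only sterol enzyme that rose. Its normalized counts were 215, 208 and 143 in KYSE450 and 528, 405 and 349 in KEAP1null-KYSE450. Every library of the clone was higher, at 226% of the KYSE450 mean (log2 fold change 1.18, SE 0.20, adjusted p = 4.6e-04). Without KYSE450 library 3, which was the lowest, its log2 fold change was 0.99 and it missed the limit of 1, with the test still passed. LBR, which catalyses the same reduction and was picked out here after its values were seen, had means of 4357 and 3643 and did not pass (log2 fold change -0.27, SE 0.12, adjusted p = 0.073). On a scale per kb of transcript, TM7SF2 rose from 119.5 to 271 normalized counts per kb.

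**Figure D2:**
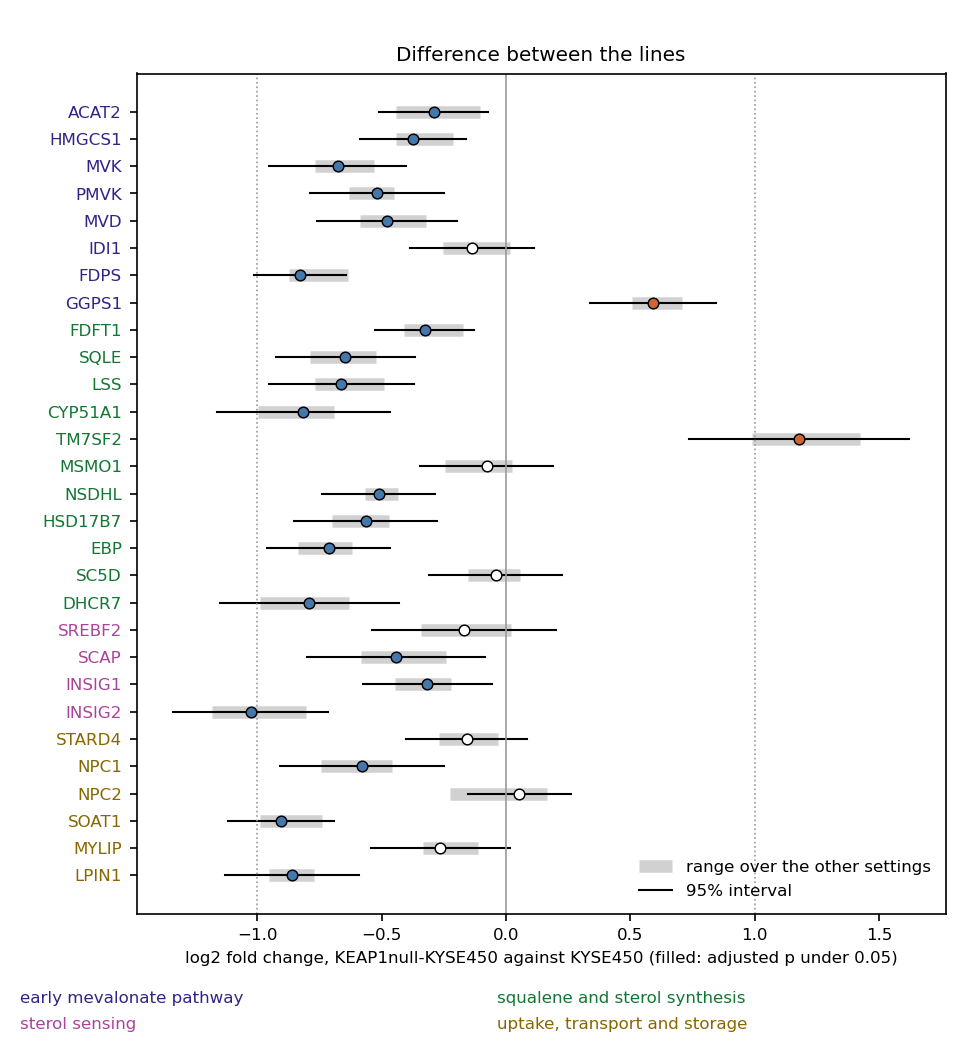
Log2 fold change of each tested member between KEAP1null-KYSE450 and KYSE450, with black lines for 95% intervals, grey bars for the range over 17 other settings, filled points for an adjusted p under 0.05 (blue lower, orange higher) and dotted lines at 1 and -1. Of the 29 points, 20 are blue and left of 0, and 2 are orange and right of 0.

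The sterol sensing genes did not move by one amount. INSIG2, an anchor that holds SCAP in the endoplasmic reticulum (ENSG00000125629, chr2:118088452-118110997 in hg38), had 1561, 1852 and 1228 normalized counts in KYSE450 and 784, 774 and 691 in KEAP1null-KYSE450. The KYSE450 libraries were spread while those of the clone were close, and the highest library of the clone lay well under the lowest of KYSE450. The clone held 48.5% of the KYSE450 level (log2 fold change -1.03, SE 0.14, adjusted p = 9.1e-05). This was the largest decrease of the set in the test over 6 libraries, but SOAT1 or LPIN1 fell further without KYSE450 library 2 and with edgeR and DESeq2. INSIG1, the other anchor and itself a known target of SREBP2, gave 2218, 2134 and 1669 in KYSE450 and 1611, 1519 and 1668 in KEAP1null-KYSE450. KYSE450 library 3 and KEAP1null-KYSE450 library 3 were nearly equal, and the decrease passed narrowly (log2 fold change -0.32, SE 0.12, adjusted p = 0.042) and did not pass under 12 of 17 other settings.

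SCAP, the escort of the SREBP precursors, gave 3970.1, 2562 and 2648 in KYSE450 and 2670.4, 1944 and 2061 in KEAP1null-KYSE450. Library 1 was high in both lines, and library 1 of the clone lay within the range of KYSE450, so the lines overlapped (log2 fold change -0.44, SE 0.16, adjusted p = 0.040). The call was lost under 8 of 17 other settings, with an adjusted p of up to 0.16 when single libraries were left out. SREBF2, the gene of SREBP2, gave 7742, 5645 and 4861 in KYSE450 and 6736, 4658 and 4759 in KEAP1null-KYSE450. The lines overlapped widely and the test was not passed (log2 fold change -0.17, SE 0.17, adjusted p = 0.43), with a 95% interval of -0.54 to 0.20. Without KYSE450 library 1 its log2 fold change was 0.018.

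Sterol uptake, transport and storage comprised 7 members, of which 6 were tested, 3 fell and none rose. SOAT1, which esterifies cholesterol for storage, had 7169, 7071 and 6930.2 normalized counts in KYSE450 and 4250.1, 3604 and 3496 in KEAP1null-KYSE450. The KYSE450 libraries were close to each other and far above those of the clone, which held 53.6% of their level (log2 fold change -0.90, SE 0.098, adjusted p = 1.1e-05). LPIN1, a phosphatidate phosphatase and coregulator of lipid genes, gave 1632, 1397 and 1329 in KYSE450 and 903, 729 and 767 in the clone. The lines were separate, with the clone at 55.1% (log2 fold change -0.86, SE 0.12, adjusted p = 1.2e-04). NPC1, the membrane protein that moves cholesterol out of lysosomes, gave 2292, 1883 and 1692 in KYSE450 and 1639.7, 1186 and 1129.9 in KEAP1null-KYSE450. Library 1 was the highest in both lines, and library 1 of the clone came close to the lowest KYSE450 library (log2 fold change -0.58, SE 0.15, adjusted p = 0.0072).

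NPC2, the soluble partner that hands cholesterol to NPC1, did not pass the test, with means of 2131 and 2212 normalized counts and a log2 fold change of 0.053 (95% interval -0.16 to 0.26). With the trend over GC content and length removed, it was -0.23 (adjusted p = 0.030, limma with Benjamini-Hochberg adjustment). The sterol transfer protein STARD4 did not pass (log2 fold change -0.16, SE 0.11, adjusted p = 0.26). MYLIP, a ubiquitin ligase of lipoprotein receptors, did not pass (log2 fold change -0.26, SE 0.13, adjusted p = 0.11), although each library of the clone lay below each KYSE450 library. NPC1L1 was not tested, since its 1 value above 0 was 9.17 normalized counts, in KEAP1null-KYSE450 library 2.

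Levels of different genes were compared as mean normalized counts per kb of the main transcript. In KYSE450, FDPS was the highest member at 9549 per kb, followed by ACAT2 at 6024, FDFT1 at 3277, DHCR7 at 2888 and NPC2 at 2596. In KEAP1null-KYSE450, FDPS was still first at 5375 per kb and ACAT2 second at 4915, with overlapping ranges over libraries, 5235 to 5512 and 4690 to 5338. FDPS had led ACAT2 in KYSE450 without overlap, 9413 to 9758 against 5383 to 6495. NPC2 moved from rank 5 to rank 3, and TM7SF2 from rank 29 to rank 23. INSIG2 went from rank 21 to rank 25, and GGPS1 from rank 25 to rank 21. These rank shifts are small steps in a range that spans from 119.5 to 9549 per kb among the 29 tested members in KYSE450.

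**Figure D3:**
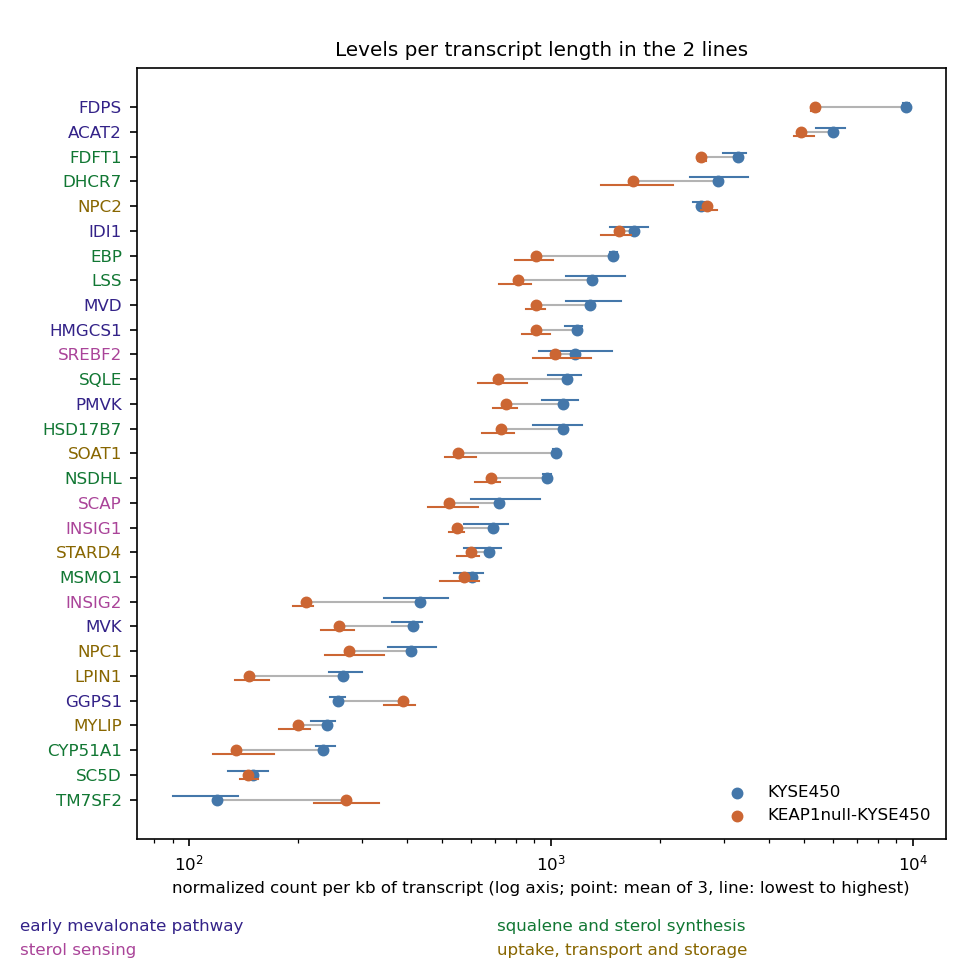
Mean normalized count per kb of transcript in KYSE450 (blue) and KEAP1null-KYSE450 (orange) on a log axis, ordered by the level in KYSE450, with lines from the lowest to the highest of the 3 libraries. FDPS is highest in both lines, at 9549 and 5375 per kb, and TM7SF2 moves from 119.5 to 271 per kb.

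Library 1 of each line was high for many members. Of the 29 tested members, 9 had a main transcript above 55% GC, and 8 of these 9 were higher in library 1 of both lines than the mean of the remaining libraries of the line, as were 10 of the other 20 members. Their median log2 difference was 0.44 in KYSE450 and 0.22 in KEAP1null-KYSE450, against 0.042 and 0.072 for the other 20 members. Across the tested genes, which are not independent, the deviation of a library from the mean of its line correlated with GC content (Spearman's rho) at 0.30 in KYSE450 library 1 and at 0.068 in KEAP1null-KYSE450 library 1, and with transcript length at 0.29 and 0.33. Such trends were not confined to library 1. For GC content and length, rho was -0.14 and -0.18 in KYSE450 library 2 and -0.25 and -0.23 in library 3. In KEAP1null-KYSE450 it was -0.17 and -0.098 in library 2 and 0.076 and -0.33 in library 3. In library 1 of KYSE450 and of KEAP1null-KYSE450, SREBF2 differed by 0.56 and 0.52 and SCAP by 0.61 and 0.42. Without library 1 of each line, 20 members were lower and 2 higher, with a member median of -0.41. Of all genes, 28.4% were then lower and 25.7% higher. With the trend over GC content and length removed from each library, 24 members were lower and 2 higher, against 29.7% and 25.7% of all genes. Both settings were added after the data were seen.

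Neighbouring genes on the chromosome were also lower for some members. For each member, the median log2 fold change was taken over the genes within 2 Mb whose mean reached 100 normalized counts. It was -0.69 for the 88 neighbours of PMVK and -0.69 for the 89 neighbours of FDPS, which lie close together on chromosome 1 and share 87 of these genes, -0.71 for the 14 neighbours of MYLIP and -0.45 for the 22 neighbours of HSD17B7. These were the 4 of 29 members with a neighbour median under -0.4, and for the others it ran from -0.40 to 0.34. The median of the 29 neighbour medians was -0.074, and the median of member minus neighbours over all 29 was -0.41. Of the 20 members that fell, 19 lay below the median of their neighbours, and the exception was PMVK. Those 20 were picked by the same fold changes, so this count was largely set in advance. INSIG2 was at -1.03 against -0.25 for its 9 neighbours, DHCR7 at -0.79 against 0.24 for 29, and FDPS at -0.83 against -0.69. The part of these stretches in the values of PMVK, FDPS, MYLIP and HSD17B7 was not tested.

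**Figure D4:**
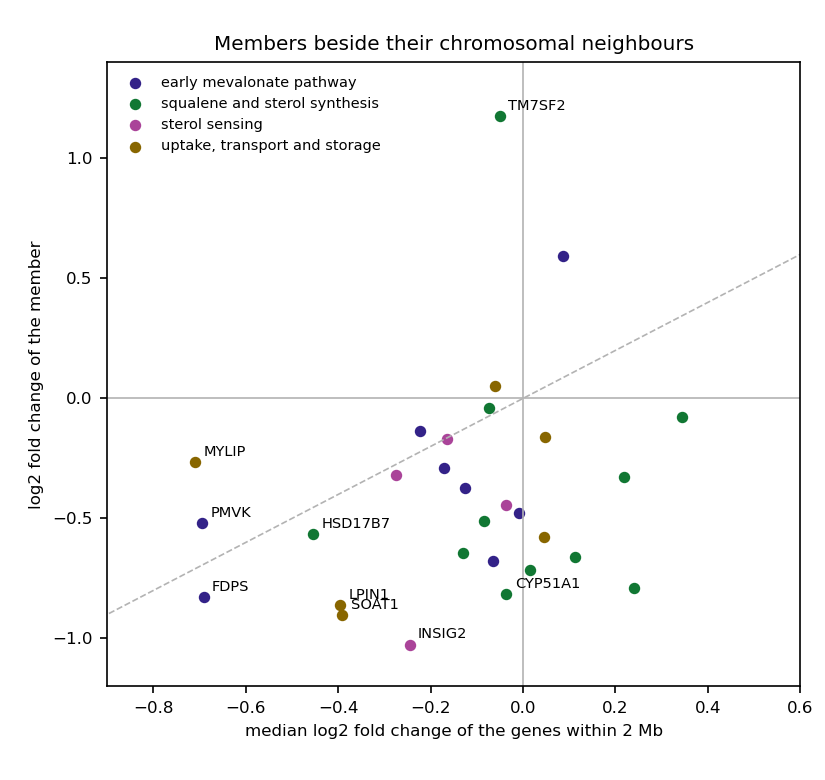
Log2 fold change of each tested member (vertical axis) against the median log2 fold change of the genes within 2 Mb of it (horizontal axis), coloured by role, with a dashed line where both are equal. FDPS, PMVK, HSD17B7 and MYLIP lie at neighbour medians under -0.4.

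Some members overlap other transcribed genes or have annotated pseudogenes. The strand setting of the counts is not given in the sources used here, so reads could not be told apart where exons of such genes meet. Overlaps are given between whole gene spans, introns included, so the counted sequence that is shared can be much shorter. AKAP9 overlaps CYP51A1 over 25687 bases on the opposite strand and had a log2 fold change of -0.28. RMC1 overlaps NPC1 over 25639 bases and had -0.46. The main transcripts of CYP51A1 and NPC1 are only 3155 and 4760 bases long. TCP1 overlaps the end of ACAT2 by 615 bases on the opposite strand and had -0.76. Its means were 66370 in KYSE450 and 39050 in KEAP1null-KYSE450, against 9157 and 7470 for ACAT2. The part of TCP1 reads in the value of ACAT2 was not tested. ARID4B overlaps GGPS1 by 870 bases and had -0.20, against 0.59 for GGPS1. VPS51 shares 18 bases with TM7SF2 on the same strand and had 0.031, against 1.18 for TM7SF2. FDPS has 8 annotated pseudogenes, CYP51A1 and IDI1 have 3 each and HSD17B7 has 2, so their counts are uncertain to the extent that reads were divided among the copies.

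Genes around the pathway were counted from 6 further lists. For scale, 25.5% of all genes tested were lower and 24.3% were higher, and no list was tested against those shares. Among 8 genes of SREBP maturation and turnover in the endoplasmic reticulum, 4 fell and none rose. SREBF1, the gene of SREBP1 and picked out here after its values were seen, was lowest, with 18005, 13944 and 11186 normalized counts in KYSE450 and 8306, 6336 and 6987 in KEAP1null-KYSE450 (log2 fold change -0.98, SE 0.15, adjusted p = 2.2e-04). Its lines did not overlap. Among 11 genes that use isoprenoids for dolichol, ubiquinone and protein prenylation, 5 fell and none rose. Of 7 tested partners of sterol synthesis, 1 fell and 2 rose. Of 10 tested genes of fatty acid synthesis, 5 fell and 2 rose.

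The lists of sterol export and sterol transfer held the largest increases among these genes. GRAMD1B, which carries cholesterol from the plasma membrane to the endoplasmic reticulum, had 7.49, 18.2 and 13.99 normalized counts in KYSE450 and 197, 207 and 209.8 in KEAP1null-KYSE450. The lines were far apart (log2 fold change 3.93, SE 0.33, adjusted p = 1.3e-06). GRAMD1C, a relative with the same kind of sterol-binding domain, had 246, 387 and 341 in KYSE450 and 1161, 1471 and 1251 in the clone. It also rose in every library of the clone (log2 fold change 2.01, SE 0.17, adjusted p = 1.2e-06), while GRAMD1A, named after its values were seen, fell (log2 fold change -0.75, SE 0.13, adjusted p = 4.9e-04). ABCA1, the exporter of cholesterol to apolipoproteins and a known target of LXR, was low in both lines, with 12.8, 6.06 and 1.86 in KYSE450 and 23.1, 36.7 and 17.2 in KEAP1null-KYSE450. Its libraries did not overlap (log2 fold change 1.96, SE 0.64, adjusted p = 0.022), and the KYSE450 value nearest 0 was under the floor. In all, 1 of 5 tested genes of export and LXR rose and 2 fell. Of 12 tested genes of transfer and lipoprotein receptors, 3 rose and 1 fell, against 24.3% higher and 25.5% lower over all genes tested.

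**Figure D5:**
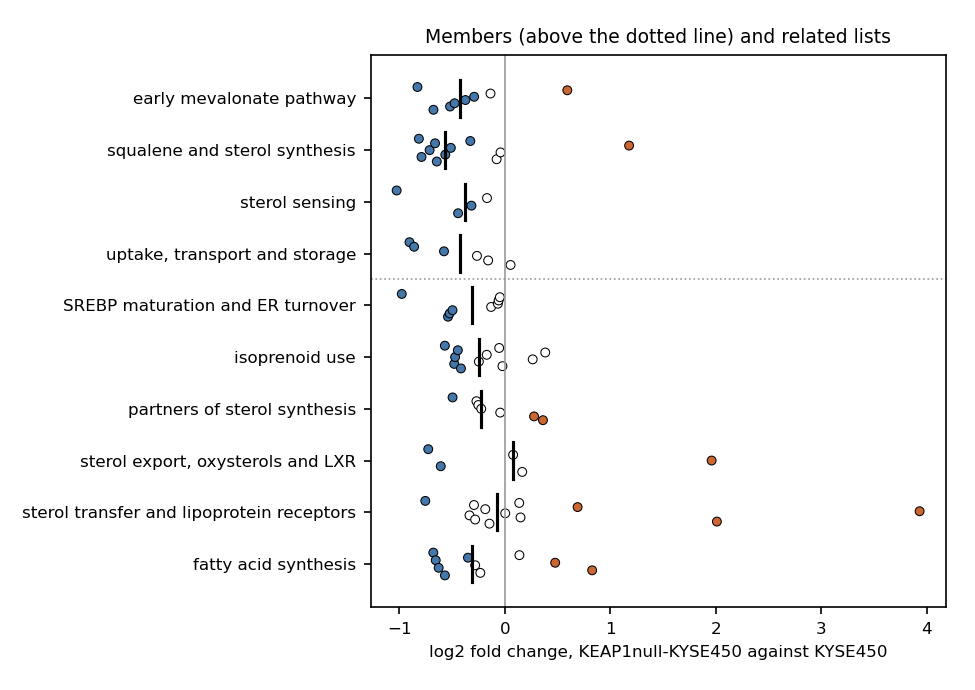
Log2 fold change of each tested gene of the 4 role groups of the pathway (above the dotted line) and of 6 related lists, with blue for lower and orange for higher at an adjusted p under 0.05, open points for genes that did not pass, and black bars for list medians. GRAMD1B at 3.93 lies farthest right, and the list medians of the 4 role groups lie between -0.57 and -0.38.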

How the data were processed

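RNA sequencing of 3 KYSE450 and 3 KEAP1null-KYSE450 libraries was analysed. The authors deposited a matrix of normalized counts, which is a signal scaled between libraries. The submitters' processing notes name FastQC (0.11.5), cutadapt (1.12), STAR (2.6.90c) and featureCounts (1.5.1), with hg38 and mm10 as builds. The methods name hg38, a RefSeq annotation and DESeq2, whereas the identifiers are Ensembl. Of 58884 entries, 273 have no symbol.

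Differences were tested two-sided with limma (3.58.1, in R 4.3.3, with a trended eBayes prior). Values were log2 transformed after adding 1, which understates the change of low genes, and genes needed a mean of 10 or more. Adjustment was by Benjamini-Hochberg over 16701 genes. In all 6 libraries 100% of values were whole multiples of the worth of 1 read, within 0.1 of a read. In KYSE450 library 2 and KEAP1null-KYSE450 library 3 that worth was too close to 1 normalized count for read numbers to be taken from it, and the other 4 gave 53027359 to 61543442 reads. On these 4, edgeR (4.0.16) called 2472 genes lower and 2914 higher, and DESeq2 (1.42.0) called 2732 and 2617. Positions, lengths and GC content came from gencode v44, and promoters from RefSeq. The tests were also run on simulated counts. These had few changed genes and no GC or length trends, so they do not check the calls made in these libraries.

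The members and lists were chosen with earlier results of these data known. Values in every library are given for members with an adjusted p under 0.05 and for SREBF2, SCAP, INSIG1 and INSIG2, and related genes are named past both thresholds, except where stated. The alternatives were other pseudocounts, filters, scalings, variance models, count tests and samples. Leaving out library 1 of each line and removing the GC and length trend were added after the data were seen.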

Additional observations from a re-analysis of the deposited data

How the results depend on the processing

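Of 493 values of single members under 17 other settings, 438 kept their direction and their side of the threshold, 41 kept their direction but no longer passed, 5 newly passed and 9 changed sign. The count of members that fell was 13 with edgeR and 13 with DESeq2, both on 4 libraries, against 14.8% and 16.4% of all genes. It was 15 with quantile normalization (23.5% of all genes), 15 with eBayes without trend (20.9%) and 18 after rescaling to the same total (23.4%). It was 17 to 19 when single libraries were left out (19.4% to 25.3%). Under every setting 2 members rose, while 14.4% to 25.7% of all genes were higher. With the limit on the fold change added, the count lower was 0 after rescaling to the same total, with quantile normalization, with edgeR and with DESeq2. It was 0 to 1 when single libraries were left out, with 0 without KYSE450 library 2 or KEAP1null-KYSE450 library 3, and the count higher was 0 to 1, with 0 without KYSE450 library 3. Signs changed only for members that had not passed. These were IDI1 at 0.015, MSMO1 at 0.00019 and SC5D at 0.0011 with quantile normalization, SC5D at 0.058 with edgeR and 0.031 with DESeq2, SREBF2 at 0.018 without KYSE450 library 1, SC5D at 0.029 without KYSE450 library 3, MSMO1 at 0.025 without KEAP1null-KYSE450 library 1, and NPC2 at -0.23 (adjusted p = 0.030) with the GC and length trend removed. Over single libraries left out, SREBF2 ran from -0.34 to 0.018, SC5D from -0.15 to 0.029 and MSMO1 from -0.16 to 0.025. The cause was not tested.

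INSIG1 lost its call under 12 settings, ACAT2 and SCAP under 8 each, FDFT1 under 4, HMGCS1 and NPC1 under 3 each, PMVK under 2 and MVD under 1. The member median ran from -0.52 to -0.38. No paired analysis was possible because the columns carry no replicate numbers. With a mean of at least 100, which all 29 tested members reached, 20 members and 31.9% of all genes tested were lower. Depth limited only NPC1L1, since every other member was far above the floor of 2.77 to 3.21 normalized counts.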

Other observations

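Antisense transcripts at a pair of members did not move with the member. STARD4-AS1, opposite STARD4 over 2195 bases, had means of 11.1 normalized counts in KYSE450 and 41.0 in KEAP1null-KYSE450 (log2 fold change 1.68, SE 0.51, adjusted p = 0.016, limma with Benjamini-Hochberg adjustment). CYP51A1-AS1, opposite CYP51A1 over 200 bases, had means of 43.4 and 86.1 (log2 fold change 1.01, SE 0.34, adjusted p = 0.025), while CYP51A1 fell. Without the strand setting of the counts, reads could not be told apart where exons of these pairs meet. Overlaps here are again between whole gene spans, introns included, and both transcripts were chosen after their values were seen. MMAB, which makes a form of vitamin B12 and lies head to head with MVK with an overlap of 326 bases, had means of 2565 and 3108 (log2 fold change 0.28, SE 0.097, adjusted p = 0.031), while MVK fell.

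CYP46A1, an enzyme that makes an oxysterol from cholesterol, stayed under the filter on the mean and was not tested. Its normalized counts were 5.35, 0 and 1.86 in KYSE450 and 15.7, 17.3 and 10.1 in KEAP1null-KYSE450, and every library of the clone was higher. SOAT2, the second enzyme of cholesterol esterification, was under the floor in all 6 libraries, while SOAT1 was detected in each.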
